A study of Mus musculus with 6 samples.

Results

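Nucleolar ribosome biogenesis genes were followed by RNA sequencing in macrophages grown from the bone marrow of wild-type mice. The set was 41 genes chosen by symbol for their roles in this pathway, and each had 1 entry among the 25711 gene entries of the deposited table. Cells given the chemokine CCL7 at 500 ng/ml for 24 h gave 3 libraries, and control cells at 24 h gave 3 libraries. All 6 libraries carry the genotype label WT, and the labels used here give no strain, age, sex, culture medium or source of the CCL7. The extraction text names primary chondrocytes beside these macrophages, but every library used here is labelled as macrophages. The study asks how CCL7 relates to macrophage polarization in rheumatoid arthritis. Nothing in the labels ties a library to a separate animal or culture, so p-values measure the spread between these libraries, which may be technical.

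Ribosomes are built largely in the nucleolus, where RNA polymerase I transcribes a long precursor of the ribosomal RNAs. Small nucleolar RNAs, held in protein particles, guide chemical changes of that precursor. Separate sets of assembly factors then fold and cut it into the small (40S) and large (60S) subunits. The transcription factor Myc is known to activate many genes of this pathway, and growing cells are known to express them strongly.

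With CCL7, most of these genes were modestly higher and the pair with the highest control levels per length was lower. Of the 41 genes, all passed the expression filter, a mean level of at least 1 FPKM (counts scaled by gene length and library size). By edgeR's quasi-likelihood test, with an adjusted p under 0.05 over all genes tested, 32 were higher, 2 were lower and 7 did not pass. Among all 11143 genes tested, 69.1% were called in either direction, 33.9% higher and 35.2% lower. The log2 change (CCL7 over control) had a median of 0.53 over the 41 genes and -0.01 over all genes tested. It ran from -0.49 for Npm1 to 1.39 for Myc. Most changes were under 2-fold: 17 of the 32 rises reached 1.5-fold and 5 reached 2-fold, which were Myc, Rcl1, Bysl, Tsr1 and Rrp9. The CCL7 and control libraries did not overlap at 37 of the 41 genes, as at 73.7% of all genes tested. The deposited totals, as named here and below, sum the deposited counts of a library over the genes tested. Scaling by them alone moved the median of all genes to -0.26 and that of the 41 genes to 0.29. Then 25 were higher and 5 lower, while 20.5% of all genes tested were called higher and 53.5% lower. Those 25 were higher in all 16 alternative settings tried.

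Totals over all gene entries ran from 34860523 to 51161400 counts per library, and a member had 103 to 19495 counts in a library. Levels within a gene are given below as CPM (counts scaled to a common library size, with TMM, edgeR's trimmed-mean factors), and levels between genes as FPKM. CCL7 replicate 2 stood apart on the second principal component of all tested genes, which held 2.40% of the variance. Among the CCL7 libraries it had the highest CPM at 28 of the 41 genes and the lowest at 10. Without it, 32 genes were higher and 2 lower, with a median log2 change of 0.48. The macrophage markers Csf1r (4261 ± 143 CPM with CCL7 and 3044 ± 18.8 CPM in controls) and Adgre1 were abundant. Of 8 macrophage markers 6 were higher and 1 lower, beside 33.9% and 35.2% of all genes tested. The marker changes ran from Fcgr1 (2.74 ± 0.06) to Cd68 (-0.23 ± 0.05). Markers of other cells were low and below the expression filter, with at most 3.90 CPM summed per list in any library. Neutrophil markers summed to 1.0 to 1.6 CPM in CCL7 libraries and 0.0520 to 0.208 CPM in control libraries, mostly Camp (1.25 ± 0.31 CPM with CCL7 and 0.077 ± 0.067 CPM in controls). Dendritic cell markers summed to 1.17 to 1.53 CPM in CCL7 libraries and 0.416 to 0.832 CPM in control libraries. They did not move as one. Xcr1 averaged 1.03 CPM with CCL7 and 0.094 CPM in controls, whereas Cd209a averaged 0 CPM with CCL7 and 0.279 CPM in controls. Zbtb46 averaged 0.267 CPM with CCL7 and 0.263 CPM in controls, and Flt3 and Siglech had at most 4 counts in any library. Stromal markers summed to 1.5 to 3.90 CPM in CCL7 libraries and 0.930 to 1.74 CPM in control libraries, which overlap. In mean CPM, Dcn and Pdgfrb were higher with CCL7, and Col1a1 and Col1a2 were lower. Chondrocyte and lymphocyte markers overlapped between the groups in their sums. Flt3, Siglech, Cd209a, Elane and Matn3 had 0 counts in all CCL7 libraries. The part of these cells in the results below was not tested.

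**Figure D1:**
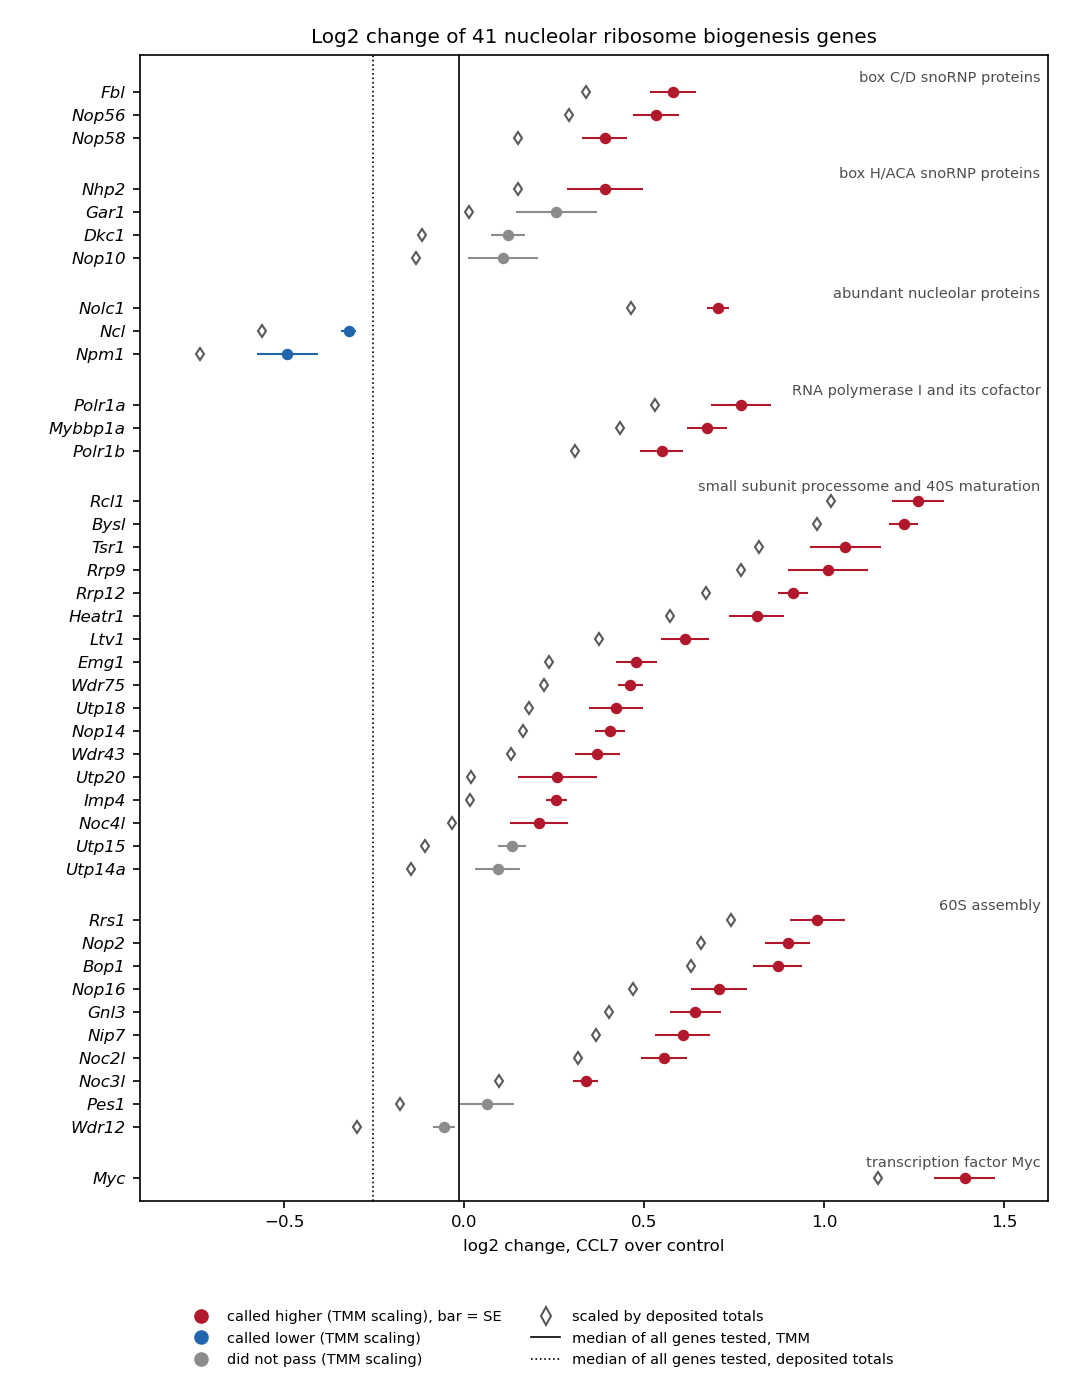
Log2 change (CCL7 over control, x axis) of the 41 genes grouped by role (y axis); filled points use TMM scaling with bars of 1 SE (3 libraries per group), open diamonds use the deposited totals, and vertical lines mark the median of all genes tested (-0.01 and -0.26). Ncl and Npm1 are the only genes called lower under TMM scaling, and every open diamond lies left of its filled point.

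Myc itself had the largest log2 change of the set and the lowest FPKM in controls. Myc (ENSMUSG00000022346, GRCm38 chromosome 15, 61985391 to 61990374, plus strand) had 7.62, 8.23 and 8.13 CPM in CCL7 libraries, against 3.09, 3.29 and 2.74 CPM in control libraries. All 3 CCL7 libraries lay above all 3 controls. The log2 change was 1.39 ± 0.08 (SE, n = 3 per group here and below; edgeR adjusted p = 2.28e-06), a 2.62-fold difference. Per length it averaged 2.69 ± 0.10 FPKM with CCL7 and 1.21 ± 0.11 FPKM in controls (SD, n = 3 here and below).

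Most tested genes of the Myc network fell. Max encodes the partner that Myc needs to bind DNA, and the Mxd proteins, Mxi1 and Mnt compete with Myc for Max. Of 11 listed network genes other than Myc, 9 were tested: 2 rose, 6 fell and 1 did not pass. That is 22.2% higher and 66.7% lower, beside 33.9% and 35.2% of all genes tested. With the deposited totals 1 was higher and 6 lower, beside 20.5% and 53.5% of all genes tested. The Myc relatives Mycl and Mycn were below the expression filter. In the fit without it Mycl was at 2.84 (edgeR adjusted p = 1.07e-08), with 0.782 CPM with CCL7 and 0.104 CPM in controls. Mycn was at -4.86 (edgeR adjusted p = 0.0505). Mxd3 had 0.745, 0.649 and 0.502 CPM in CCL7 libraries, against 10.9, 11.4 and 11.5 CPM in control libraries. Its log2 change was -4.14 ± 0.17 (edgeR adjusted p = 2.74e-09). Mxd4 fell to 32.4 ± 4.57 CPM with CCL7, against 119 ± 3.15 CPM in controls (-1.88 ± 0.12). Mxi1 (-1.34 ± 0.07), Mnt (-0.69 ± 0.05) and Mxd1 (-0.28 ± 0.08) fell as well, though Mxd1 did not pass with quantile normalization (limma adjusted p = 0.132). Mga, which encodes a large Max partner, fell (-0.34 ± 0.18), but its edgeR adjusted p was 0.0609, 0.0844 and 0.0703 without control replicate 3, 2 and 1. Without CCL7 replicate 2, its lowest library, Mga was at -0.18 (edgeR adjusted p = 8.50e-04). Mlx, which encodes a relative of Max, rose (0.91 ± 0.05). Max passed as slightly higher under TMM scaling (0.16 ± 0.05, edgeR adjusted p = 0.0209) but had a log2 change of -0.083 by the deposited totals. It lost its call without control replicate 3 (edgeR adjusted p = 0.0911) or 1 (0.0794). Mlxip, which encodes a glucose-sensing partner of Mlx, was at 123 CPM with CCL7 and 113 CPM in controls and did not pass (0.12 ± 0.10). Without CCL7 replicate 2 it passed, at 0.21 (edgeR adjusted p = 1.49e-04).

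**Figure D2:**
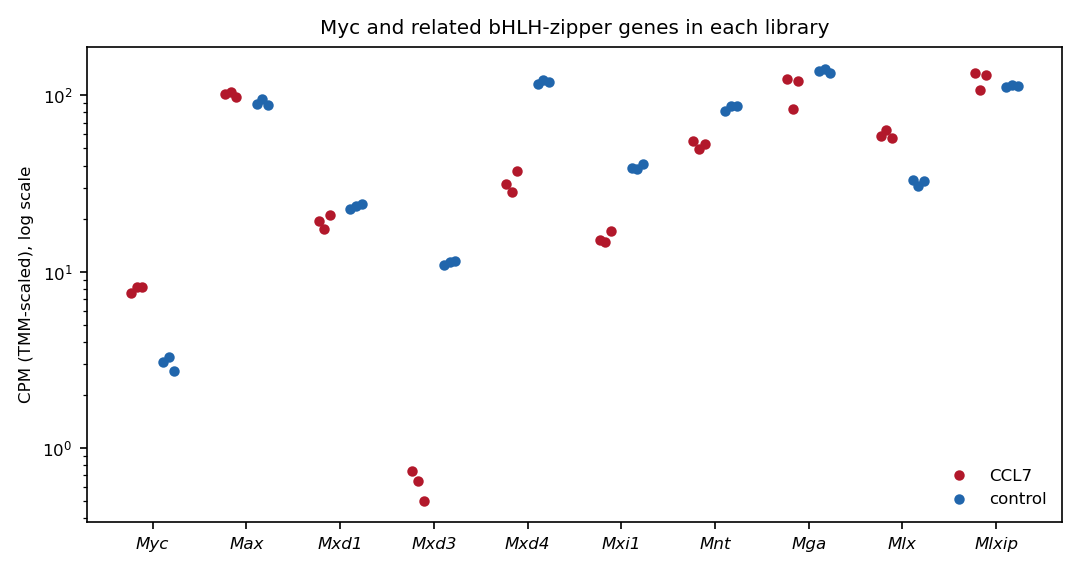
CPM in each library (log y axis) of Myc and 9 network genes, with CCL7 libraries left of controls for each gene. Myc lies higher with CCL7 while Mxd3, Mxd4, Mxi1 and Mnt lie lower in all 3 CCL7 libraries.

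The E-box, the palindrome CACGTG, is the DNA motif that Myc and Max are known to prefer. Promoter windows from RefSeq (GRCm38.p6), 250 bases before to 50 after the annotated start, were found for 35 of the 41 genes, Myc not among them. The motif was in 9 of the 35, which is 25.7%, beside 12.4% of 8205 tested genes with such a window and 8.09% of all 27025 genes in that table. The 9 were Imp4, Nop2, Utp18, Wdr43, Pes1, Tsr1, Ltv1, Utp20 and Mybbp1a. In Imp4, Nop2 and Utp18 it lay upstream, beginning 121, 60 and 20 bases before the start. In Pes1 it began at base 3 of the transcript and in the other 5 genes between bases 18 and 41. A match in these letters is a description of the sequence, not a binding site, and no binding was measured. By call, the motif was in 8 of 27 members called higher (29.6%) and in 1 of 8 not called higher (12.5%), which was Pes1. Of the rises past 2-fold, Tsr1 carries it. Whether the motif relates to the changes was not tested. Nop2, Imp4 and Utp18 were called higher, but Imp4 did not pass with the deposited totals (edgeR adjusted p = 0.805). Upstream stretches are shown where the whole motif lay before the start. They are given 5′ to 3′ on the strand of the gene, with the E-box in capitals, at chr6:125131783-125131868 (plus strand) for Nop2, chr1:34439668-34439753 (plus strand) for Imp4 and chr11:93885767-93885826 (minus strand) for Utp18.
Nop2: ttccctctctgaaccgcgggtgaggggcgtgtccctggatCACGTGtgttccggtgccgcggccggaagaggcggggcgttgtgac
Imp4: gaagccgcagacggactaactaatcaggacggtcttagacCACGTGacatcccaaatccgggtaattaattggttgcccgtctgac
Utp18: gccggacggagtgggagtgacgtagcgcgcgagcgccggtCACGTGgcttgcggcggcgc

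All 3 members tied to RNA polymerase I rose, beside 33.9% of all genes tested. Polr1a (ENSMUSG00000049553, chromosome 6, 71909053 to 71984935, plus strand), the gene of the largest subunit, had 88.2, 75.7 and 84.1 CPM in CCL7 libraries, against 51.8, 48.1 and 45.7 CPM in control libraries. The groups did not overlap, and the log2 change was 0.77 ± 0.08 (edgeR adjusted p = 3.50e-06). Polr1b, which encodes the other large catalytic subunit, had 28.9, 29.7 and 31.8 CPM in CCL7 libraries, against 21.8, 20.4 and 19.7 CPM in control libraries (0.55 ± 0.06). Mybbp1a, which encodes a nucleolar protein found with the polymerase, had 180, 169 and 174 CPM in CCL7 libraries, against 116, 103 and 108 CPM in control libraries (0.67 ± 0.06). All 3 kept their call in every alternative setting.

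Other genes of this polymerase did not move as one. Of 12 tested, 3 rose, 3 fell and 6 did not pass, with a median log2 change of -0.08. That is 25.0% higher and 25.0% lower, beside 33.9% and 35.2% of all genes tested. Rrn3 (0.34 ± 0.04), the initiation factor gene, Cd3eap (0.50 ± 0.05) and Polr1e (0.32 ± 0.13), both subunit genes, rose. Ubtf, which encodes the upstream binding factor of the ribosomal RNA promoter, had 71.8, 72.5 and 76.0 CPM in CCL7 libraries, against 93.4, 93.6 and 93.8 CPM in control libraries (-0.35 ± 0.03, edgeR adjusted p = 6.37e-05). The subunit genes Polr1c (-0.27 ± 0.08) and Polr1f (-0.16 ± 0.05) fell too. With the deposited totals 1 of the 12 rose and 7 fell, beside 20.5% and 53.5% of all genes tested. Neither Rrn3 nor Polr1e passed then. Polr1e lost its call without control replicate 3 or 2 or CCL7 replicate 3 or 2 (edgeR adjusted p = 0.117, 0.0859, 0.0561 and 0.0622). Polr1f lost it without control replicate 3 or 2 or CCL7 replicate 3 or 1 (edgeR adjusted p = 0.0969, 0.147, 0.146 and 0.0614). Its call was also lost with edgeR's other size factors (edgeR adjusted p = 0.0574), without the filter (0.286) and with filterByExpr (0.0988). The same held with the replicate number as a block (edgeR adjusted p = 0.0641), with DESeq2 (DESeq2 adjusted p = 0.0860) and with quantile normalization (limma adjusted p = 0.244).

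The 3 box C/D particle genes rose under TMM scaling, and 2 of them with the deposited totals. In these settings 33.9% and 20.5% of all genes tested were higher. Box C/D genes encode proteins of small nucleolar particles. These particles methylate ribose groups of ribosomal RNA. Fbl (ENSMUSG00000046865, chromosome 7, 28169710 to 28179269, plus strand) encodes fibrillarin, the methylating enzyme. It had 75.1, 86.7 and 78.8 CPM in CCL7 libraries, against 55.0, 52.9 and 52.9 CPM in control libraries. Every CCL7 library lay above every control, by 0.58 ± 0.06 on the log2 scale (edgeR adjusted p = 1.02e-05). Nop56, a scaffold gene of the same particle, had 72.7, 81.0 and 71.3 CPM in CCL7 libraries, against 53.6, 51.3 and 50.6 CPM in control libraries (0.53 ± 0.06). Nop58, the other scaffold gene, had 35.0, 36.8 and 31.9 CPM in CCL7 libraries, against 26.9, 26.2 and 26.0 CPM in control libraries (0.39 ± 0.06). It passed with TMM scaling (edgeR adjusted p = 3.49e-04) but missed the threshold when only the deposited totals were used (edgeR adjusted p = 0.0546).

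The box H/ACA particle converts uridine to pseudouridine and shares its proteins with telomerase. Of its 4 genes, 1 passed as higher (25.0%), beside 33.9% of all genes tested. Nhp2 had 38.6, 41.9 and 37.7 CPM in CCL7 libraries, against 32.1, 31.8 and 26.3 CPM in control libraries (0.39 ± 0.10, edgeR adjusted p = 0.00169). That call was lost when scaled by the deposited totals (edgeR adjusted p = 0.121) and with quantile normalization (limma adjusted p = 0.114). Dkc1, the gene of the pseudouridine synthase dyskerin, had 17.5, 18.9 and 17.2 CPM in CCL7 libraries, against 16.3, 16.0 and 16.8 CPM in control libraries (0.12 ± 0.05, edgeR adjusted p = 0.131). These groups were narrowly apart without passing the test. Gar1, which encodes another core protein, had 10.3, 12.3 and 9.82 CPM in CCL7 libraries, against 9.41, 9.34 and 8.37 CPM in control libraries (0.26 ± 0.11, edgeR adjusted p = 0.0526). Gar1 passed without CCL7 replicate 3 (edgeR adjusted p = 0.0283). Nop10, the gene of the smallest particle protein, had 29.0, 34.2 and 32.1 CPM in CCL7 libraries, against 32.3, 28.4 and 27.8 CPM in control libraries, which overlap (0.11 ± 0.10, edgeR adjusted p = 0.262). Whether the box C/D and H/ACA genes differ in their response was not tested.

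The abundant nucleolar proteins split. Npm1 (ENSMUSG00000057113, chromosome 11, 33152287 to 33163206, minus strand) encodes nucleophosmin, a chaperone that shuttles ribosomal particles and histones. It had 259, 293 and 240 CPM in CCL7 libraries, against 365, 371 and 377 CPM in control libraries. The groups were apart, with CCL7 replicate 2 nearest to the controls. Npm1 fell (-0.49 ± 0.08, edgeR adjusted p = 9.66e-05). Ncl (ENSMUSG00000026234, chromosome 1, 86344719 to 86359400, minus strand) encodes nucleolin, an RNA-binding protein of the nucleolus. It had 331, 332 and 326 CPM in CCL7 libraries, against 423, 406 and 407 CPM in control libraries (-0.32 ± 0.02, edgeR adjusted p = 7.32e-05). Both kept the call in every alternative setting. Nolc1, which encodes a chaperone of small nucleolar particles, had 61.6, 63.7 and 61.3 CPM in CCL7 libraries, against 38.6, 38.9 and 36.9 CPM in control libraries (0.70 ± 0.03, edgeR adjusted p = 5.01e-07). Npm1 has processed copies in the mouse genome that could take some of its reads, so its level is less certain.

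**Figure D3:**
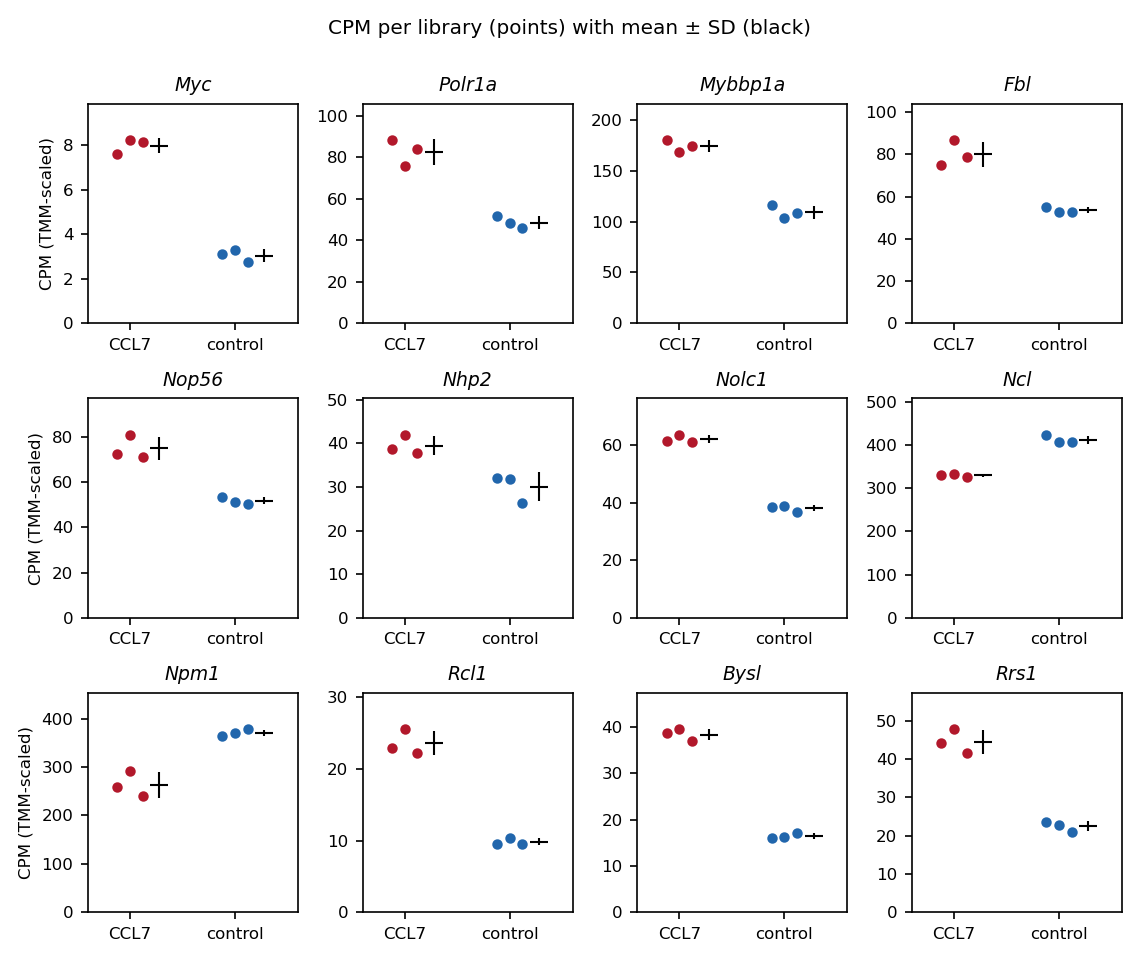
CPM (TMM-scaled, y axes from 0) of 12 genes in each CCL7 library (left, red) and each control library (right, blue), with the mean and SD in black. The 12 are all called genes whose groups do not overlap, and the 7 genes that did not pass are not shown. Over the whole set 37 of the 41 genes did not overlap, as 73.7% of all genes tested. Ncl and Npm1 are the panels in which CCL7 libraries lie lower.

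Npm1 and Ncl made up a large part of the summed level of the set. Npm1 averaged 90.6 ± 8.59 FPKM with CCL7 and 150 ± 2.46 FPKM in controls, and Ncl 29.6 ± 0.19 FPKM with CCL7 and 43.7 ± 1.09 FPKM in controls. They stood at places 1 and 4 of the 41 by FPKM with CCL7, and at places 1 and 2 in controls. Nhp2 was at place 2 with CCL7 (31.5 ± 1.55 FPKM) and at place 5 in controls (28.3 ± 3.10 FPKM). The median gene was at 10.1 FPKM with CCL7 and 7.90 FPKM in controls. Summed over the 41 genes, the level was 2497 to 2613 CPM in CCL7 libraries, against 2112 to 2194 CPM in control libraries. As a share of the deposited counts this was 0.230% to 0.237% in CCL7 libraries and 0.228% to 0.237% in control libraries, which overlap. Without Npm1 and Ncl, a choice made after seeing their values, the sum was 1932 to 1989 CPM in CCL7 libraries, against 1328 to 1406 CPM in control libraries. Their share of the counts was then 0.178% to 0.181% in CCL7 libraries, against 0.143% to 0.152% in control libraries. Across the 41 genes, Spearman's rho between mean FPKM over the 6 libraries and log2 change was -0.15, and -0.01 over 39 without that pair. Pearson's r over the 41 genes, with FPKM on the log2 scale, was -0.37. These points share the same libraries.

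**Figure D4:**
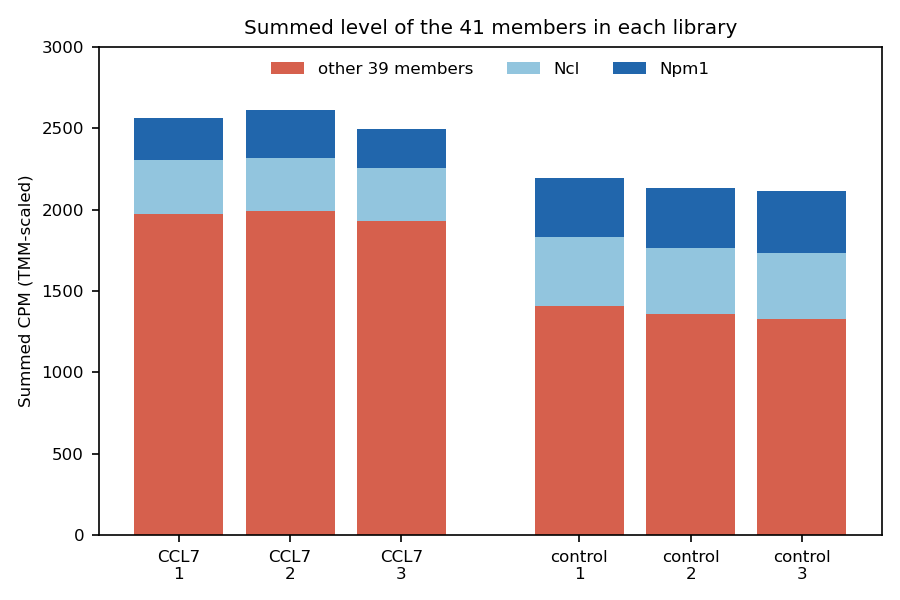
Summed CPM (TMM-scaled, y axis from 0) of the 41 genes in each library, stacked as Npm1, Ncl and the other 39 genes. CCL7 libraries reach 2497 to 2613 CPM and controls 2112 to 2194 CPM, while the Npm1 and Ncl layers are thinner in the CCL7 bars.

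The 4 single genes with the largest log2 changes after Myc belong to the small subunit, although the median of that group was below those of the polymerase, box C/D and large subunit genes. Of 17, 15 rose, 0 fell and 2 did not pass, with a median log2 change of 0.46. That is 88.2% higher, beside 33.9% higher and 35.2% lower of all genes tested. With the deposited totals 11 of the 17 were higher and 1 lower, beside 20.5% and 53.5% of all genes tested. Rcl1 (ENSMUSG00000024785, chromosome 19, 29101375 to 29143929, plus strand), whose yeast relative acts in cutting the precursor RNA, had 22.9, 25.4 and 22.2 CPM in CCL7 libraries, against 9.49, 10.4 and 9.57 CPM in control libraries. That is a 2.39-fold difference, with no overlap (1.26 ± 0.07, edgeR adjusted p = 1.84e-07). Bysl, which encodes bystin, a factor of late subunit maturation, averaged 38.3 ± 1.24 CPM with CCL7 and 16.4 ± 0.61 CPM in controls (1.22 ± 0.04, edgeR adjusted p = 2.56e-08). Tsr1, which encodes a GTPase-like factor that sits on the maturing subunit, averaged 24.5 ± 2.63 CPM with CCL7 and 11.7 ± 0.46 CPM in controls (1.06 ± 0.10). Rrp12, known in yeast for export of pre-ribosomes, averaged 35.1 ± 0.58 CPM with CCL7 and 18.7 ± 0.86 CPM in controls (0.91 ± 0.04). Ltv1, a late assembly factor gene, rose by 0.61 ± 0.07.

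Other genes of the group belong to the processome, the large complex around the U3 small nucleolar RNA. Rrp9, which encodes a U3-bound protein, averaged 19.8 ± 2.48 CPM with CCL7 and 9.84 ± 0.48 CPM in controls (1.01 ± 0.11). Heatr1, a scaffold gene of the complex, averaged 98.1 ± 8.64 CPM with CCL7 and 55.9 ± 0.49 CPM in controls (0.81 ± 0.08). Emg1 (0.48 ± 0.06), which encodes a methyltransferase of the small-subunit RNA, rose, as did Wdr75 (0.46 ± 0.03), Utp18 (0.42 ± 0.07) and Nop14 (0.40 ± 0.04). Wdr43 (0.37 ± 0.06), Utp20 (0.26 ± 0.11), Imp4 (0.25 ± 0.03) and Noc4l (0.21 ± 0.08) passed with TMM scaling but not with the deposited totals, where Noc4l was at -0.035. Utp20 also lost its call without control replicate 3 (edgeR adjusted p = 0.0685) or CCL7 replicate 1 (0.0528). Noc4l lost it without control replicate 3 (0.124), control replicate 1 (0.0763) or CCL7 replicate 2 (0.0521). Utp15 averaged 40.8 ± 1.46 CPM with CCL7 and 37.3 ± 1.14 CPM in controls (0.13 ± 0.04, edgeR adjusted p = 0.0507), and it passed without CCL7 replicate 3 (0.0451) or CCL7 replicate 2 (0.0274). Utp14a averaged 45.6 ± 2.34 CPM with CCL7 and 42.8 ± 2.31 CPM in controls (0.09 ± 0.06, edgeR adjusted p = 0.205) and was at -0.15 with the deposited totals.

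Of the 10 genes of large subunit assembly, 8 rose, 0 fell and 2 did not pass, with a median log2 change of 0.62. That is 80.0% higher, beside 33.9% higher and 35.2% lower of all genes tested. With the deposited totals 7 rose and 2 fell, beside 20.5% and 53.5% of all genes tested. Rrs1 (ENSMUSG00000061024, chromosome 1, 9545408 to 9547455, plus strand), known in yeast to help bring the 5S particle into the subunit, had 44.2, 47.7 and 41.6 CPM in CCL7 libraries, against 23.7, 22.9 and 21.0 CPM in control libraries. The 1.97-fold difference left no overlap (0.98 ± 0.08, edgeR adjusted p = 5.88e-07). Nop2, which encodes a methyltransferase of ribosomal RNA, averaged 55.8 ± 1.71 CPM with CCL7 and 30.0 ± 2.09 CPM in controls (0.90 ± 0.06). Gnl3, the nucleostemin gene, averaged 51.5 ± 3.76 CPM with CCL7 and 33.0 ± 1.51 CPM in controls (0.64 ± 0.07). Nop16 (0.71 ± 0.08), Nip7 (0.61 ± 0.08), Noc2l (0.55 ± 0.06) and Noc3l (0.34 ± 0.04), genes of assembly factors, rose, and Noc3l did not pass with the deposited totals (edgeR adjusted p = 0.165).

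Bop1, Pes1 and Wdr12 encode the partners of the PeBoW complex, which is needed to mature the large subunit RNA, and their values were unlike. Bop1 had 75.9, 82.2 and 79.1 CPM in CCL7 libraries, against 45.3, 44.5 and 39.7 CPM in control libraries (0.87 ± 0.07, edgeR adjusted p = 5.32e-07). Pes1 had 101, 109 and 93.1 CPM in CCL7 libraries, against 101, 97.5 and 91.7 CPM in control libraries (0.06 ± 0.08, edgeR adjusted p = 0.411). Wdr12 had 34.9, 33.9 and 34.6 CPM in CCL7 libraries, against 35.0, 35.3 and 37.3 CPM in control libraries (-0.06 ± 0.03, edgeR adjusted p = 0.362). With the deposited totals Pes1 (-0.18) and Wdr12 (-0.30) were called lower while Bop1 (0.63) stayed higher. The difference between the 3 genes was not tested.

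Ribosome biogenesis genes outside the set were counted for comparison. The 90 listed symbols, which include both older and newer names of some genes, matched 84 entries, of which 83 were tested. Of these 48 rose, 9 fell and 26 did not pass, with a median log2 change of 0.26. That is 57.8% higher and 10.8% lower, beside 33.9% and 35.2% of all genes tested, whose median was -0.01. Scaled by the deposited totals, 29 were higher and 30 lower, with a median of 0.02, beside 20.5%, 53.5% and -0.26 over all genes tested. The largest rises were Eif6, which encodes a factor that keeps the subunits apart (1.13 ± 0.08), Rpf2, a partner of Rrs1 in yeast (1.09 ± 0.16), and Riok3, an atypical kinase gene of the small subunit (1.07 ± 0.03). Eif6 had 145, 172 and 147 CPM in CCL7 libraries, against 72.1, 69.6 and 71.2 CPM in control libraries. The largest falls were Nop53, a large subunit factor gene (-0.43 ± 0.06), Ubtf, and Utp3, a processome gene (-0.32 ± 0.06). By subunit, 23 of 37 other small subunit genes rose and 2 fell, and 22 of 34 other large subunit genes rose and 4 fell. With the deposited totals these were 13 and 12 for the small subunit and 15 and 11 for the large subunit. The difference between these genes and the set was not tested.

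Genes that encode the ribosomal proteins themselves had a median on the other side of 0. Of 83 tested, 2 rose, 45 fell and 36 did not pass, with a median log2 change of -0.19. That is 2.41% higher and 54.2% lower, beside 33.9% and 35.2% of all genes tested. With the deposited totals 0 of the 83 were higher and 71 lower, beside 20.5% and 53.5% of all genes tested. Rps4l was highest among the rises (0.40 ± 0.13) and Rps27 lowest among the falls (-0.72 ± 0.40). Rps4l lost its call without control replicate 2 or 1 or CCL7 replicate 3 (edgeR adjusted p = 0.0737, 0.0824 and 0.0604). Rps27 lost it without control replicate 2 or 1 (edgeR adjusted p = 0.0593 and 0.0709), did not pass with DESeq2 (DESeq2 adjusted p = 0.0804), and was at -0.42 without CCL7 replicate 1. Their summed level was 23162, 27796 and 23859 CPM in CCL7 replicates 1, 2 and 3, against 28342 to 28901 CPM in control libraries. CCL7 replicate 2 lay nearest to the controls there, as it did for Npm1. Many of these genes have pseudogene copies, so single values are uncertain. The difference between this list and the nucleolar genes was not tested.

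Several members carry small nucleolar RNA genes inside their own gene. By GENCODE M21 (GRCm38), 7 of the 41, or 17.1%, contained at least 1 such gene on the same strand, 21 in all, against 1.85% of 11080 tested genes found in that annotation. They were Nop56, Nop58, Dkc1, Ncl, Wdr43, Tsr1 and Gnl3. Of these hosts, 5 rose, Ncl fell and Dkc1 did not pass. The hosted RNAs with an entry in the table had at most 14 counts in a library, so their levels could not be compared. Noncoding hosts of small nucleolar RNAs were measurable: of 11 tested, 3 rose, 2 fell and 6 did not pass, with a median of 0.10. That is 27.3% higher and 18.2% lower, beside 33.9% and 35.2% of all genes tested. With the deposited totals 2 of the 11 were higher and 4 lower, beside 20.5% and 53.5% of all genes tested. Snhg6 rose most (0.51 ± 0.06) and Snhg8 fell most (-0.54 ± 0.09).

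Of the tested genes tied to nucleolar stress and p53, the response known to follow faulty ribosome assembly, most were not called. Of 7 tested, Mdm2, the gene of the p53 ubiquitin ligase, rose (0.41 ± 0.04), and Ccng1, a p53 target gene, fell (-0.53 ± 0.03). The other 5 did not pass, and the median of the 7 was -0.11. With the deposited totals 1 was higher and 5 lower. Over all genes tested, 33.9% were higher and 35.2% lower, or 20.5% and 53.5% with the deposited totals. Cdkn2a, also listed, was below the expression filter, at 0.123 ± 0.079 CPM with CCL7 and 1.63 ± 0.30 CPM in controls. In the fit without the filter its log2 change was -3.69 (edgeR adjusted p = 4.87e-21). All 12 proliferation genes fell, with a median log2 change of -3.40 and the largest fall for Kif11 (-4.68 ± 0.06), a mitotic motor gene. Their summed level was 479 to 516 CPM in CCL7 libraries, against 2768 to 2877 CPM in control libraries. Their part in the nucleolar results was not tested. In bulk RNA, fewer cells of a type and less RNA per cell cannot be told apart.

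By GENCODE M21, 20 of the 41 genes share some exon bases with another annotated gene, and the strand setting of the counting is not given in the sources used here. For Tsr1 the shared part was 32.3% of its exon length, with Srr on the opposite strand, whose own log2 change was -0.23. For Noc2l it was 20.9%, with Samd11, which was below the expression filter, and for Utp14a 11.5%, with 9530027J09Rik, not analysed here. The length implied by count and FPKM for Noc2l was 4160 bases, against 2867 in this annotation, so its share is uncertain. For Bysl it was 9.37%, with Ccnd3, which was at 1.05. Without strand, reads of such pairs cannot be told apart.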

How the data were processed

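RNA sequencing of 3 CCL7 and 3 control libraries was analysed. The authors deposited raw counts per gene, and FPKM values, per the file headers. The submitters' processing notes list Bowtie 0.12.2, and mm8 and mm9 as genome builds, with no role for any; the counting program is not given in the sources used here. The length implied by count and FPKM equalled the GENCODE M21 exon length for 40 of the 41 genes, all but Noc2l. Coordinates are therefore from that annotation.

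Counts of 11143 genes, those that averaged 1 FPKM or more, were tested with edgeR 4.0.16 (quasi-likelihood, TMM, group as the only term, 2-sided, Benjamini-Hochberg over all genes tested, threshold 0.05). SEs come from the SDs of log2 CPM. Limma 3.58.1 and DESeq2 1.42.0 served as alternatives. Members, role groups and gene lists were chosen with earlier results of these data known. All members are named; by-library values are given for Myc, for members of the small groups, and for the largest changes per role. Of other ribosome biogenesis genes the 3 largest rises and falls, of further lists the largest rise and fall past the threshold, and every tested Myc network gene are named. Genes outside that rule were chosen after their values were seen. They were the PeBoW genes by library, Rrn3, Cd3eap, Polr1e, Polr1c, Polr1f, Csf1r, Adgre1, Cdkn2a, Mycl and Mycn. The markers below the filter and the overlapping genes were also chosen after their values were seen.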

Additional observations from a re-analysis of the deposited data

How the results depend on the processing

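For the 41 genes, 593 of the 656 single-gene values under the 16 alternatives kept direction and side of the threshold, and 21 values, of 7 genes, had the other direction, 0 of them with a library left out. The 2 falls held in all of them, and 25 of the 32 rises did; 30 rises held in all 6 fits that leave out a library. With the deposited totals, 25 members were higher and 5 lower, with a median log2 change of 0.29; of all genes 2288 were higher and 5965 lower, and of the other ribosome biogenesis genes 29 and 30. Limma on log2(FPKM + 1) gave 4 members lower, a median of 0.25, 2288 and 5936 of all genes, and 26 and 28 of the other biogenesis genes. With a pseudocount of 0.1 it gave 4 lower, a median of 0.29, 2284 and 5916 of all genes, and 26 and 28. These 3 settings lack a scaling factor between libraries. The members' median was 0.58 without the expression filter and 0.43 with quantile normalization, and 0.48 to 0.56 with a library left out; then 30 to 34 members were higher and 2 lower.

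Among genes called in either setting, direction turned for Utp14a (-0.15 with the deposited totals), for Noc4l (-0.035 with the deposited totals, -0.024 and -0.026 with limma at pseudocounts of 1 and 0.1), for Pes1 (-0.18, -0.17 and -0.18, and -0.17 with quantile normalization) and for Max (-0.083, -0.076 and -0.079, and -0.046 with quantile normalization) and for Csf1r (-0.016 with quantile normalization); for the quantile values the cause was not tested. Without a call in either setting, Dkc1 (-0.12), Nop10 (-0.13), Utp15 (-0.11) and Mlxip (-0.12) turned with the deposited totals and with limma at both pseudocounts, as did Utp14a with limma; with quantile normalization Nop10 (-0.10) and Wdr12 (0.07) turned. Among genes that did not pass, Gar1 and Utp15 passed with edgeR's other size factors, without the filter, with filterByExpr and with quantile normalization, and Gar1 also with DESeq2 and under the block, and Utp15 with counts halved. Dkc1 passed with quantile normalization. The alternatives for genes outside the set were added after seeing the data. Replicate numbers did not pair the libraries: deviations of same-numbered libraries had correlations of -0.083, -0.035 and -0.016, and no library correlated best with its own number. With the replicate number as a block, 33 members were higher and 2 lower. Intervals from 3 libraries per group limit what can be said of changes near the threshold.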
